A study of Homo sapiens with 2 samples.

Results

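The 10 genes described here encode 7 cathepsins (CTSB, CTSC, CTSD, CTSH, CTSL, CTSV and CTSZ) and 3 cystatins (CSTB, CST3 and CST6). They were taken by symbol, through GENCODE release 44, from the 58735 Ensembl genes of each of 2 count tables, and all 10 symbols matched 1 gene in each table. Measured values played no part in the matching. The tables came from MCF10a-Snail-ER cells, a non-tumorigenic human mammary epithelial line that carries a stable fusion of the repressor Snail to the estrogen receptor. The cells had been given 100 nM tamoxifen for 1 day, which activates the fusion and starts an epithelial-to-mesenchymal transition. One library was direct RNA sequencing on the Oxford Nanopore MinION, and the other was an Illumina TruSeq stranded mRNA library of matched polyadenylated RNA. Both libraries carry the same construct and the same treatment, and no untreated library was analysed, so the values describe treated cells as seen by each platform and show no response to Snail. With 1 library per platform no difference has a replicate check, and every interval and test below covers counting error between these 2 libraries only.

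Cathepsins are proteases that are made as inactive proenzymes, tagged with mannose 6-phosphate in the Golgi, sorted to endosomes and lysosomes and activated there at acid pH. Most belong to the papain family and cut with an active-site cysteine, whereas cathepsin D uses a pair of aspartates. Cystatins are small proteins that block papain-type cathepsins by inserting a conserved loop into the active-site cleft. Cystatin B stays mostly inside the cell, and cystatins C (CST3) and E/M (CST6) are secreted. In mammary epithelium the system is known for turnover of proteins in lysosomes and, when cathepsins are released, for degradation of basement membrane.

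The coding sequence around the active-site cysteine (cathepsins) or the inhibitory loop (cystatins) is shown for 6 members. For CTSL and CTSV it shows how alike the 2 genes are in this stretch. How well reads of either platform tell them apart was not tested. Each stretch is 45 bases of the spliced MANE Select transcript in GENCODE 44, the representative transcript agreed between NCBI and Ensembl, written 5′ to 3′. In the cathepsins the capitals mark the codon of the active-site cysteine, and in the cystatins they mark the 5 codons of the conserved inhibitory loop.
CTSL: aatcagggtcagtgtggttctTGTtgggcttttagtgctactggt
CTSV: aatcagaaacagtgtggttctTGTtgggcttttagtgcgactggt
CTSC: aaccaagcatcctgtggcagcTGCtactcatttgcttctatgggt
CTSH: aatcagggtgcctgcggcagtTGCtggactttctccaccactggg
CST3: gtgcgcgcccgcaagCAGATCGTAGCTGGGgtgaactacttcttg
CST6: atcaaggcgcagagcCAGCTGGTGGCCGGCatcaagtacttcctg

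On hg38 the CTSL stretch runs from exon 4 into exon 5 (chr9:87728391-87728623, plus strand) and so does that of CTSV (chr9:97036709-97037257, minus strand). The stretches of CTSC (chr11:88296227-88300536, minus) and CTSH (chr15:78932420-78934983, minus) span exons 5 and 6. Those of CST3 (chr20:23635341-23637637, minus) and CST6 (chr11:66012267-66012852, plus) run from exon 1 into exon 2. CTSL and CTSV differ at 4 of the 45 bases and match at 83.5% of 999 aligned coding bases. The longest run they share is 40 bases, and they have no 50-base word in common. CTSL differs from CTSC and CTSH at 21 and 16 of these 45 bases. Among the cystatins, coding identity was 58.4% of 286 aligned bases between CSTB and CST3 and 55.2% of 422 between CST3 and CST6. Between CSTB and CST6 it was 58.5% of 294, and between CTSL and CTSZ 52.4% of 861. With aligned lengths this unequal, these values do not rank how closely the cystatins are related.

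Depth differed 476-fold, with 403235 counts by Nanopore against 191741714 by Illumina. Levels are given in CPM, the counts of a gene per 1e6 counts of its library, and a single count is worth 2.48 CPM in the shallow library but 0.00522 CPM in the deep one. A count of 0 allows up to 7.44 CPM and 0.0156 CPM, on a floor of 3 counts. Of the 7 basal mammary epithelial markers, KRT5 had 680 Nanopore and 277508 Illumina counts, KRT14 322 and 117214, and KRT17 215 and 55537. LAMB3 had 64 and 81075, ITGB4 55 and 40741, EGFR 51 and 36245, and TP63 5 and 6368. The list summed to 3452 CPM by Nanopore and 3206 CPM by Illumina. Of the luminal markers, KRT8 had 157 and 40083 counts, KRT18 113 and 61710, and GATA3 4 and 2479. KRT19 had 1 and 88 and ELF5 none, and the 5 of that list summed to 682 and 544 CPM. Macrophages are rich in cathepsins, and their markers were therefore read beside them. PTPRC had 0 Nanopore and 2 Illumina counts and LYZ 0 and 4, while CD68 had 13 and 8643, CD14 5 and 2100, and CSF1R 20 and 992. The 5 markers of that list summed to 94.2 CPM in the Nanopore library and 61.2 CPM in the Illumina library. Of these sums CSF1R, which overlaps another annotated gene, held 49.6 CPM by Nanopore but 5.17 CPM by Illumina. The 5 fibroblast markers summed to 27.3 and 33.5 CPM, most of it DCN with 10 and 5075 counts. The 3 endothelial markers had no Nanopore count, which allows each up to 7.44 CPM, and 990 Illumina counts, of which PECAM1 held 973. The part of such markers in the cathepsin counts was not tested.

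All 10 genes were detected in both libraries, and the members held 391 Nanopore counts, 0.0970% of the library (95% Wilson interval 0.0878 to 0.107%), against 272364 Illumina counts, 0.142% (0.142 to 0.143%). A gene was tested where its mean over the 2 libraries was at least 5 CPM, which 9 of the 10 members passed and CST6 did not. It was called where a two-sided exact binomial test of its counts, given the library totals, had a Benjamini-Hochberg adjusted p-value under 0.05 over all 12414 tested genes and the CPM differed by at least 2-fold. CST3 was called higher by Nanopore, and CTSB and CTSL were called higher by Illumina. Over all tested genes 17.8% were called higher by Nanopore and 22.0% higher by Illumina, so 1 and 2 of 9 members are near the background. By adjusted p alone the counts were 1 and 4 of 9, beside 20.2% and 27.2% of all tested genes. The median fold of the 9 tested members, Nanopore over Illumina, was 0.751, and that of all tested genes was 0.741.

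A fragmented library gives a long RNA more counts than a short one, whereas direct RNA sequencing gives 1 read per strand. The fold was therefore also computed after dividing the Illumina counts by the length of the MANE Select or Ensembl canonical transcript and scaling the results to a common sum (TPM). On that scale CTSL and CSTB were called higher by Illumina and no member higher by Nanopore, beside 6.65% and 28.4% of 12350 tested genes called in those directions. The median fold was then 0.888 for the 9 members and 1.43 for all tested genes. CTSL was the gene called in the same direction on both scales. By union exonic length 5 members were called higher by Nanopore and 0 by Illumina, beside 27.7% and 7.70% of the tested genes. Those 5 were CST3, CTSC, CTSD, CTSH and CTSZ. By mean transcript length the numbers were 2 and 1, beside 20.9% and 11.4%.

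**Figure D1:**
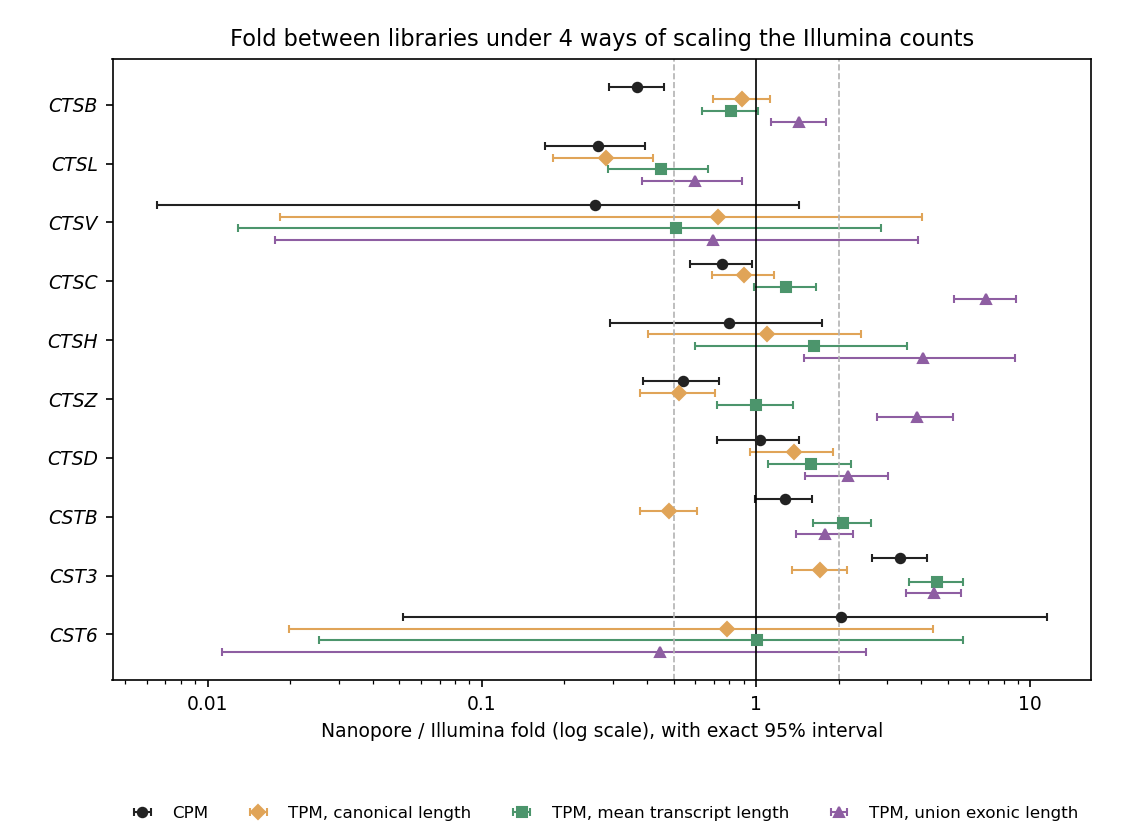
Nanopore over Illumina fold of each gene (log axis) with its exact 95% interval, for CPM and for Illumina TPM by canonical, mean transcript and union exonic length; dashed lines mark 2-fold. CTSL lies below 1 on all 4 scales, at 0.266, 0.283, 0.450 and 0.599. CST3 lies above 1 on all 4, at 3.35, 1.71, 4.57 and 4.47. The intervals of both genes exclude 1 on each scale, whereas CTSC moves from 0.751 to 6.89 and CSTB from 0.482 to 2.07.

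Among the cysteine endopeptidases, which cut inside protein chains, CTSB (ENSG00000164733) encodes cathepsin B, an enzyme that can also trim dipeptides from the carboxyl end. The gene lies on chromosome 8 (11842524 to 11869533, minus strand, hg38). It had 74 Nanopore and 95398 Illumina counts, or 184 CPM (146 to 230) and 498 CPM (494 to 501), where the Illumina share alone would have given 201 Nanopore counts. CTSB held the most Illumina counts of the 10 genes. The level was 2.71-fold higher by Illumina (exact 95% interval 2.16 to 3.45; exact binomial test, Benjamini-Hochberg adjusted p = 2.88e-23). Its MANE Select transcript has 3733 bases, the second longest of the members. Per canonical length the fold, Nanopore over Illumina, was 0.888 (0.698 to 1.12), which was not called, and per union exonic length it turned to 1.43 (1.13 to 1.80). The difference of CTSB thus appeared in CPM and was not detectable per canonical length at this depth.

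CTSL (ENSG00000135047, chromosome 9, 87724051 to 87731469, plus strand) encodes cathepsin L, a strong endopeptidase of lysosomes. It had 24 Nanopore counts, 59.5 CPM (40.0 to 88.6), and 42972 Illumina counts, 224 CPM (222 to 226). At the Illumina share 90.4 Nanopore counts would have been drawn. The CPM was 3.77-fold higher by Illumina (exact interval 2.53 to 5.88; exact binomial test, Benjamini-Hochberg adjusted p = 2.48e-15). With a MANE Select transcript of 1654 bases, the fold per canonical length stayed at 0.283 (0.182 to 0.422). It was 0.450 (0.288 to 0.670) by mean transcript length, also called, and 0.599 (0.384 to 0.892) by union exonic length, which is under 2-fold.

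Several properties of CTSL were examined beside this fold. No annotated gene overlaps it. Only 16 of the 1605 words of 50 bases in its transcript, 1.00%, also occur in another gene. These partners are CTSL pseudogenes, of which CTSL3P had 0 Nanopore and 18 Illumina counts and CTSLP1 0 and 25, and the others with a row in the tables had none. Tested genes were divided by canonical length into 5 groups of 2470, and in that of CTSL, 1284 to 2308 bases, 5.67% of the genes had a lower CPM fold than CTSL.

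CTSV (ENSG00000136943, chromosome 9, 97029677 to 97156556, minus strand) encodes cathepsin V, the nearest relative of cathepsin L and a protease with a narrower tissue range. It had 1 Nanopore count, 2.48 CPM (0.438 to 14.0), and 1846 Illumina counts, 9.63 CPM (9.20 to 10.1). The fold, Nanopore over Illumina, was 0.258 with an exact interval of 0.00652 to 1.44 (exact binomial test, Benjamini-Hochberg adjusted p = 0.305). No difference was detectable with 3.88 counts to be drawn at the Illumina share. CTSL had 24.0 times the Nanopore counts of CTSV (exact interval 3.91 to 987) and 23.3 times its Illumina counts (22.2 to 24.4), or 27.2 to 61.3 times its TPM over the 3 lengths. CTSL was thus the main transcript of this closely related pair in both libraries.

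The exopeptidases trim residues from the ends of proteins. CTSC (ENSG00000109861, chromosome 11, 88265069 to 88359684, minus strand) encodes cathepsin C, a dipeptidyl peptidase that activates granule serine proteases of blood cells. It had 61 Nanopore and 38608 Illumina counts, 151 CPM (118 to 194) and 201 CPM (199 to 203), where 81.2 Nanopore counts would have been drawn at the Illumina share. The CPM was 1.33-fold higher by Illumina (exact interval 1.04 to 1.74; exact binomial test, Benjamini-Hochberg adjusted p = 0.0499), which lies at the threshold. That p was between 0.112 and 0.662 under the alternatives other than union exonic length, where it was 7.85e-29 in the opposite direction. The direction turned per length with the mean transcript, at 1.29 (0.984 to 1.65), and with union exons, at 6.89 (5.27 to 8.86). The union of annotated exons of CTSC has 24849 bases against 1870 for its MANE Select transcript, so the second of these values rests on a length far above that of the main transcript. Per canonical length the fold of CTSC was 0.907 (0.693 to 1.16).

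CTSZ (ENSG00000101160, chromosome 20, 58985686 to 59008238, minus strand) encodes cathepsin Z, a carboxypeptidase that removes 1 residue at a time. It had 41 Nanopore and 36097 Illumina counts, 102 CPM (75.0 to 138) and 188 CPM (186 to 190). The CPM was 1.85-fold higher by Illumina (exact interval 1.36 to 2.58; exact binomial test, Benjamini-Hochberg adjusted p = 7.38e-05), under the 2-fold needed for a call. Per canonical length the fold was similar at 0.523 (0.376 to 0.710), but it was 1.00 (0.718 to 1.36) by mean transcript length and turned to 3.87 (2.77 to 5.25) by union exonic length. NELFCD, a subunit of a complex that pauses RNA polymerase II, overlaps CTSZ on the opposite strand (58981208 to 58995133) and had 36 Nanopore and 20845 Illumina counts. The annotated exons of both genes share 6136 bases, yet none of the 1502 bases of the MANE Select transcript of CTSZ lies in an exon of NELFCD. How reads in the shared exons were counted is not given in the sources used here.

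CTSH (ENSG00000103811, chromosome 15, 78921058 to 78949574, minus strand) encodes cathepsin H, an aminopeptidase. It was a rare member, with 6 Nanopore and 3576 Illumina counts, 14.9 CPM (6.82 to 32.5) and 18.7 CPM (18.0 to 19.3). The fold was 0.798 (exact interval 0.293 to 1.74; exact binomial test, Benjamini-Hochberg adjusted p = 0.856), and it turned to 1.10 (0.405 to 2.41) per canonical length. By mean transcript length the fold of CTSH was 1.63 (0.599 to 3.56). At 6 counts no difference was detectable in CPM or by these 2 lengths. By union exonic length, 13757 bases against 2145 for the MANE Select transcript, the fold was 4.05 (1.49 to 8.83), called higher by Nanopore. Within the exopeptidases, CTSC had 10.2 times the Nanopore counts of CTSH (exact interval 4.41 to 28.8) and 10.8 times its Illumina counts (10.4 to 11.2), or 5.98 to 12.9 times its TPM over the 3 lengths, all inside the Nanopore interval.

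CTSD (ENSG00000117984, chromosome 11, 1752752 to 1764573, minus strand) encodes cathepsin D, the aspartic protease of lysosomes, which cystatins do not inhibit. It had 35 Nanopore and 16115 Illumina counts, 86.8 CPM (62.4 to 121) and 84.0 CPM (82.8 to 85.4). The fold was 1.03 (exact interval 0.719 to 1.44; exact binomial test, Benjamini-Hochberg adjusted p = 0.969), and 1.37 (0.953 to 1.91) per canonical length. A difference beyond 1.44-fold in CPM in either direction lies outside the interval of the CPM fold. By mean transcript length the fold of CTSD was 1.59 (1.11 to 2.22), under the 2-fold of a call. By union exonic length it was 2.17 (1.51 to 3.02), which was called higher by Nanopore.

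CTSD shared more sequence with other genes than the other members did, of which CTSB had the most with 2.25% of its words. A protein-coding gene with an identifier only, ENSG00000250644 (chromosome 11, 1734821 to 1763954, same strand), holds 1229 of the 2006 words of 50 bases of the CTSD transcript, 61.3%. That gene had 35 Nanopore counts, the same number as CTSD, and 10845 Illumina counts, 67.3% of those of CTSD. PRADX, a long non-coding RNA gene on the opposite strand (1760348 to 1762486), shares 150 bases with the CTSD transcript and had 20 Nanopore and 186 Illumina counts. Its CPM was 51.1-fold higher by Nanopore (exact binomial test, Benjamini-Hochberg adjusted p = 1.94e-25). Gene totals cannot show whether the same reads were counted for several of these genes, so the CTSD, ENSG00000250644 and PRADX values are uncertain. ENSG00000229512, a further long non-coding RNA gene within CTSD on the same strand, had 0 Nanopore and 15 Illumina counts. Its exons share 252 bases with annotated exons of CTSD but 0 with the MANE Select transcript. Of the other members, CTSB, CTSL, CTSH, CSTB and CST6 overlap no annotated gene. The analysed genes that overlap CTSV had no count. ENSG00000270001, a long non-coding RNA gene that overlaps CST3, had 0 Nanopore and 15 Illumina counts.

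The cystatins are the inhibitors. CST3 (ENSG00000101439, chromosome 20, 23626706 to 23638473, minus strand) encodes cystatin C, a secreted inhibitor made by most cell types. It had 77 Nanopore counts, the most of any member, and 10936 Illumina counts, or 191 CPM (153 to 239) and 57.0 CPM (56.0 to 58.1). The Illumina share would have given 23.0 Nanopore counts. The CPM was 3.35-fold higher by Nanopore (exact interval 2.64 to 4.19; exact binomial test, Benjamini-Hochberg adjusted p = 1.99e-17). The MANE Select transcript has 793 bases, and per canonical length the fold was 1.71 (1.35 to 2.14), above 1 but under the 2-fold of a call. By mean transcript length the fold was 4.57 (3.60 to 5.71) and by union exonic length 4.47 (3.52 to 5.59), both called higher by Nanopore. In its length group, 53 to 1284 bases, 55.7% of the tested genes had a lower CPM fold than CST3, where the median was 2.43. The group was not limited to protein-coding genes, and its upper quartile was 20.2.

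CSTB (ENSG00000160213, chromosome 21, 43772511 to 43776330, minus strand) encodes cystatin B, also called stefin B, which guards the cytosol against leaked cathepsins. It had 71 Nanopore and 26584 Illumina counts, 176 CPM (140 to 222) and 139 CPM (137 to 140). The fold was 1.27 (exact interval 0.992 to 1.60; exact binomial test, Benjamini-Hochberg adjusted p = 0.108). Its transcript of 588 bases is the shortest of the members, and per canonical length the direction turned, with a level 2.08-fold higher by Illumina (1.64 to 2.66). By mean transcript length, 1959.8 bases, the fold was instead 2.07 (1.62 to 2.62) in favour of Nanopore. The direction of CSTB therefore depended on which length was taken for its RNA.

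CST6 (ENSG00000175315, chromosome 11, 66012008 to 66013505, plus strand) encodes cystatin E/M, a secreted inhibitor of cathepsins V and L and of legumain. It was the rarest member, with 1 Nanopore and 232 Illumina counts, 2.48 CPM (0.438 to 14.0) and 1.21 CPM (1.06 to 1.38). The ratio of 2.05 has an exact interval of 0.0517 to 11.5, and 0.488 Nanopore counts would have been drawn at the Illumina share. CST6 therefore gave no information on a difference between the libraries.

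**Figure D2:**
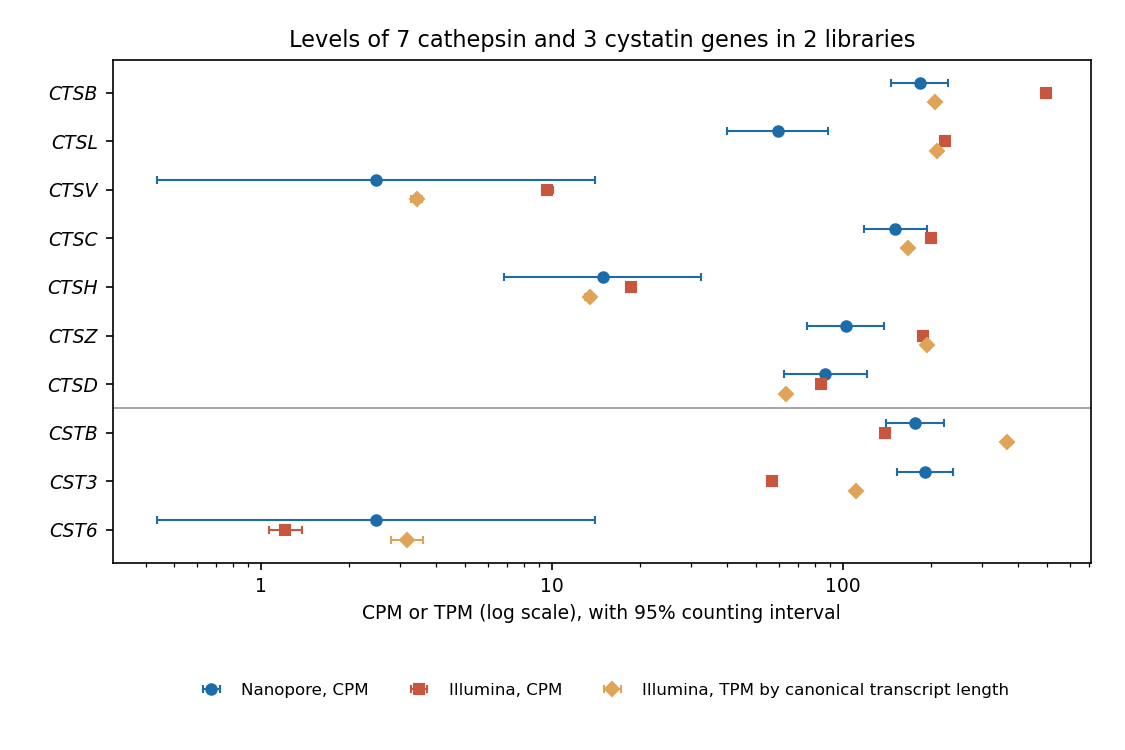
Level of each gene (log axis) by Nanopore in CPM and by Illumina in CPM and in TPM by canonical transcript length, with 95% counting intervals; cathepsins are above the line and cystatins below it. CTSV, CST6 and CTSH stand apart as rare genes, CST3 is highest by Nanopore at 191 CPM, and CSTB is highest by Illumina per length at 365 TPM.

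In order of Nanopore CPM the genes ran CST3, CTSB, CSTB, CTSC, CTSZ, CTSD, CTSL, CTSH, CTSV and CST6, from 191 to 2.48 CPM. Only CTSL and CTSH, at 59.5 and 14.9 CPM, were neighbours whose intervals did not overlap. In order of Illumina TPM by canonical length they ran CSTB at 365, CTSL at 210, CTSB at 207, CTSZ at 194, CTSC at 167, CST3 at 111, CTSD at 63.4, CTSH at 13.5, CTSV at 3.42 and CST6 at 3.17. There the intervals of CTSL and CTSB, and those of CTSV and CST6, overlapped. The same 7 genes came before CTSH, CTSV and CST6 in both orders. CTSL took the second place per length by Illumina and the seventh by Nanopore, where CTSB had 3.08 times its counts (exact interval 1.92 to 5.11). By Illumina CTSB had 0.984, 1.29 and 1.72 times the TPM of CTSL by canonical, union exonic and mean transcript length, but 2.22 times its counts, which lies inside that interval.

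Summed over the class, the 3 cystatins had 149 Nanopore counts and the 7 cathepsins 242, or 0.616 cystatin counts per cathepsin count (exact interval 0.499 to 0.758). In the Illumina library the sums were 37752 and 234612, or 0.161 (0.159 to 0.163). These sums leave out CSTA, a cystatin outside the 10 members, which had 95 Nanopore and 37339 Illumina counts. They include CTSD, with 35 and 16115 counts, which cystatins do not inhibit and whose values are uncertain. Divided by canonical length the Illumina ratio was 0.560, inside the Nanopore interval, while it was 0.454 by union exonic and 0.200 by mean transcript length, both below it. CST3 had 1.08 times the counts of CSTB by Nanopore (exact interval 0.775 to 1.52). By Illumina it had 0.411 times its counts and 0.305, 0.435 and 0.492 times its TPM by canonical, union exonic and mean transcript length, all below that interval. CSTB had 0.959 times the Nanopore counts of CTSB, one of its target enzymes (0.683 to 1.35). The Illumina TPM ratio of that pair was above the interval by canonical length, at 1.77, inside it by union exonic length, at 0.768, and below it by mean transcript length, at 0.375.

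**Figure D3:**
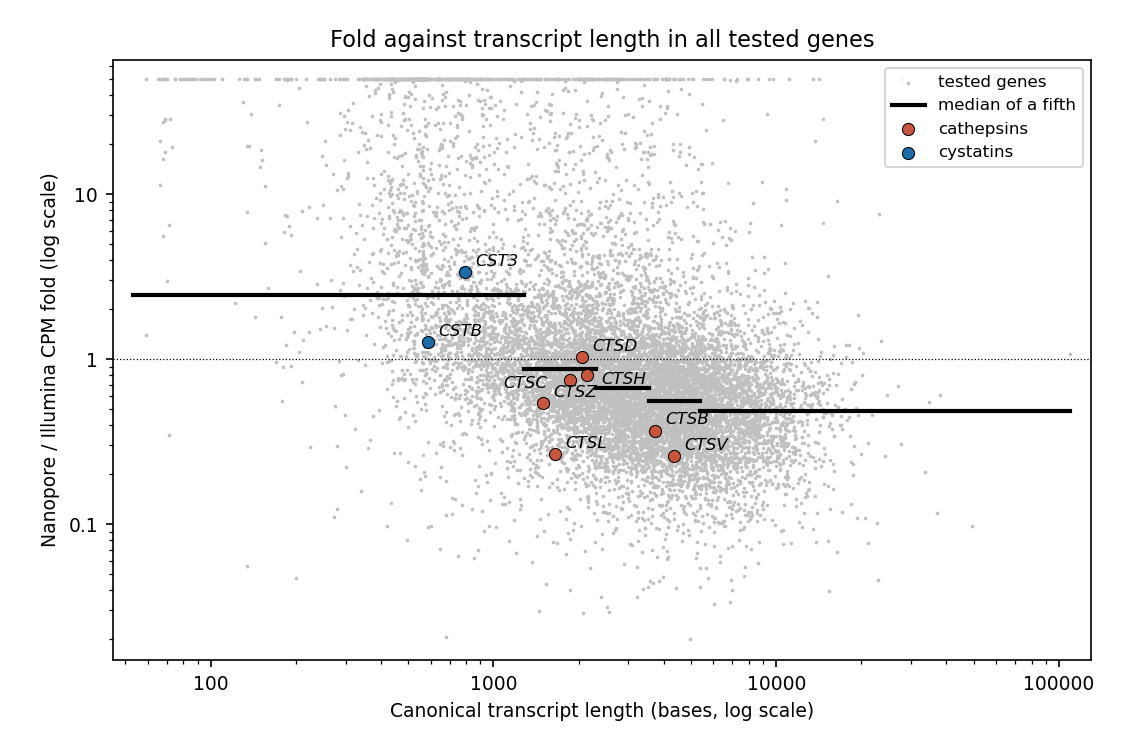
Nanopore over Illumina CPM fold against canonical transcript length (both axes logarithmic) for tested genes, with the 9 tested members in colour and the median of each of 5 length groups as a line. The 501 genes with a fold over 50 are drawn at 50, and genes without counts in 1 library (209 by Nanopore, 140 by Illumina) are left out; the medians fall from 2.43 to 0.487 from the shortest to the longest group, and the cystatins lie in the shortest one.

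The members fell in 3 of the 5 length groups of the tested genes. CSTB and CST3 were in the shortest, where the median fold of 2470 genes was 2.43 (quartiles 1.00 and 20.2). CTSL, CTSC, CTSH, CTSZ and CTSD were in the next, with a median of 0.869 (0.549 and 1.58). CTSB and CTSV were in the fourth, 3551 to 5374 bases, with a median of 0.556 (0.349 and 0.895). CSTB lay between the lower quartile and the median of its group, with 32.5% of the genes below it, and so did CTSB with 27.5%. CTSL with 5.67%, CTSV with 14.2% and CTSZ with 23.8% lay below the lower quartile of theirs, CTSV on 1 Nanopore count.

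The remaining cathepsins and legumain, a lysosomal protease that processes cathepsins, made up a further list of 9 genes. Of these, 5 had a Nanopore count and 7 an Illumina count, while CTSG and CTSW, proteases of blood cells, had no count in either library. None of the 4 tested genes was called, beside 17.8% of all tested genes called higher by Nanopore and 22.0% higher by Illumina. These 4 genes had 3 to 13 Nanopore counts each. CTSA, a serine carboxypeptidase, had 13 Nanopore and 11901 Illumina counts, a fold of 0.519 (exact interval 0.276 to 0.889; exact binomial test, Benjamini-Hochberg adjusted p = 0.0293). LGMN, which encodes legumain, had 11 and 6235 counts and a fold of 0.839 (0.419 to 1.50). CTSF, a further papain-type enzyme, had 8 and 2263 counts, and CTSK, the collagen-cutting enzyme of osteoclasts, had 3 and 637. CTSS, the antigen-processing cathepsin of macrophages and dendritic cells, had 0 Nanopore counts, which allows up to 7.44 CPM, and 392 Illumina counts, 2.04 CPM. All of these thus had fewer counts than CTSC, CTSZ, CTSB and CTSL in both libraries. By Nanopore, however, the intervals of CTSA (18.8 to 55.2 CPM) and LGMN (15.2 to 48.9 CPM) overlapped that of CTSL (40.0 to 88.6 CPM).

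Of 14 other cystatins and related inhibitors, CSTA was the one with a Nanopore count. CSTA encodes cystatin A, also called stefin A, the intracellular inhibitor of squamous epithelia. It had 95 Nanopore and 37339 Illumina counts, 236 and 195 CPM, more counts in each library than any of the 3 cystatins above. The fold was 1.21 (exact interval 0.979 to 1.48; exact binomial test, Benjamini-Hochberg adjusted p = 0.138) and turned to 0.581 per canonical length. CSTA had 1.34 times the Nanopore counts of CSTB (exact interval 0.974 to 1.85). By Illumina it had 1.11 times its TPM by canonical length but 3.93 and 3.52 times by union exonic and mean transcript length. The salivary cystatins CST1, CST2, CST4 and CST5 had no count in either library.

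**Figure D4:**
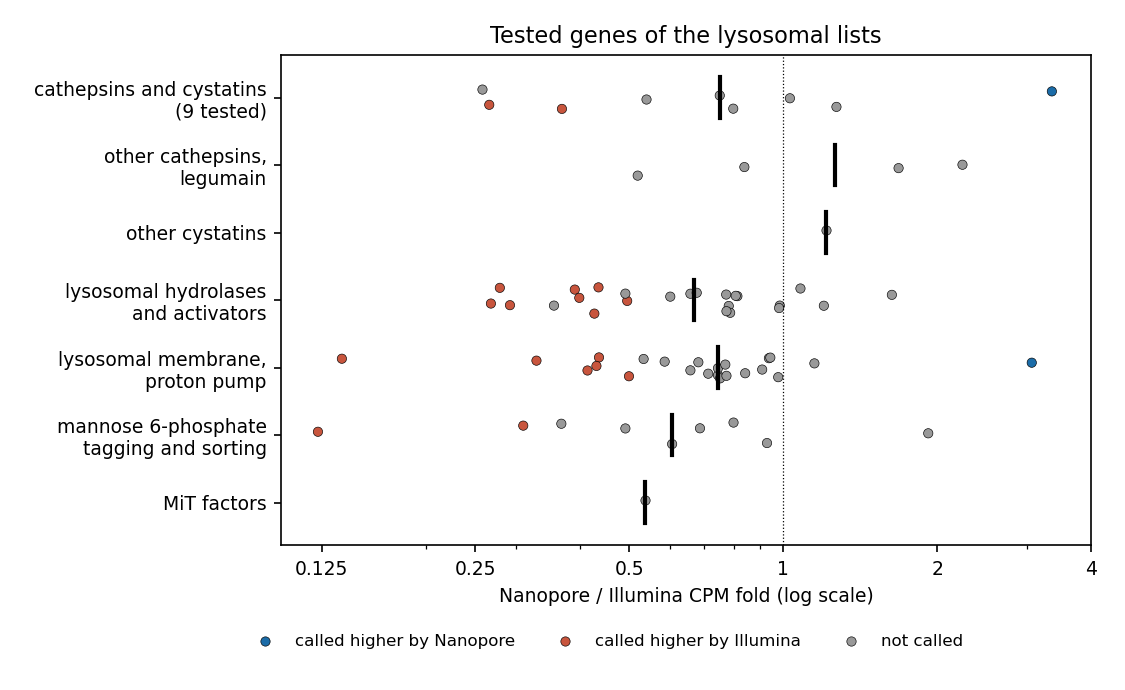
Nanopore over Illumina CPM fold (log axis) of the tested genes of each lysosomal list, coloured by call, with the list's median as a bar; vertical scatter within a row has no meaning. The hydrolases lie at 0.667 in the median (0.741 over all tested genes) with 8 of 24 called higher by Illumina (22.0% over all tested genes), and ATP6V0C at 3.06 lies near CST3 at 3.35.

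The lysosomal hydrolases and their activators are the enzymes that work beside cathepsins. Of 25 genes 24 were tested, 8 were called higher by Illumina, 0 higher by Nanopore and 16 neither way, beside 22.0% and 17.8% of all tested genes called in those directions. The median fold was 0.667 beside 0.741. Per canonical length 1 gene was called in each direction, beside 6.65% higher by Illumina and 28.4% higher by Nanopore over all tested genes, and the median was 1.09 beside 1.43. The lowest folds were those of MAN2B1, a mannosidase, at 0.268 on 4 Nanopore counts, and ARSB, a sulfatase, at 0.279 on 3. The highest were FUCA1, a fucosidase, at 1.63 on 7 counts and GAA, the lysosomal glucosidase, at 1.20 on 3, neither called. PSAP, the precursor of the saposins and a partner in the sorting of cathepsin D, had the most Nanopore counts of the list, 110, and a fold of 0.601 (exact interval 0.494 to 0.724).

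Among 23 membrane proteins and proton pump subunits, which keep the lysosome acid, 6 were called higher by Illumina, 1 higher by Nanopore and 16 neither way, beside the same 22.0% and 17.8% of all tested genes. The median fold was 0.745 beside 0.741. Per canonical length 4 were called higher by Nanopore and 2 by Illumina, beside 28.4% and 6.65%, and the median was 0.967 beside 1.43. ATP6V0C, a small membrane subunit of the pump, had 62 Nanopore and 9641 Illumina counts and a fold of 3.06 (exact interval 2.34 to 3.92), or 2.16 per canonical length, and it overlaps another annotated gene. ATP6V0B was next at 1.15, and ATP6V0A1 and ATP6V1A were lowest at 0.137 and 0.329. CD63, a tetraspanin of late endosomes, had the most Nanopore counts, 145, at a fold of 0.842 (0.711 to 0.991).

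The mannose 6-phosphate route delivers most cathepsins to the lysosome. Of 10 genes 9 were tested, 2 were called higher by Illumina and 7 were not called, near the 22.0% over all tested genes, and the median fold was 0.606 beside 0.741. Per canonical length 3 were called higher by Nanopore and 0 by Illumina, beside 28.4% and 6.65%, and the median was 1.18 beside 1.43. IGF2R, the large mannose 6-phosphate receptor, had 13 Nanopore and 19970 Illumina counts, a fold of 0.310 (exact interval 0.165 to 0.529) that turned to 2.81 per canonical length of 14061 bases. M6PR, the small receptor, had 22 and 17266 counts and a fold of 0.606 (0.380 to 0.918). SORT1, an alternative sorting receptor, had 1 and 3881 counts and a fold of 0.123 (0.00310 to 0.683). GNPTAB and GNPTG, subunits of the enzyme that adds the tag, had 4 and 7 Nanopore counts at folds of 0.368 and 0.929, and NAGPA, which uncovers the tag, had 3 at 0.799. The adaptors GGA1, GGA2 and GGA3 had 6, 13 and 22 Nanopore counts at folds of 0.491, 0.687 and 1.92. Of the 4 MiT transcription factors, which drive lysosomal genes, TFE3 alone was tested, with 10 and 8860 counts and a fold of 0.537 (0.257 to 0.987) that was not called. TFEB had 2 and 262 counts, MITF 0 and 447, and TFEC none.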

How the data were processed

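The authors deposited 1 table of whole-number counts per Ensembl gene for each library, with no normalization. Per the submitters' processing notes, minimap2 2.11-r797, HISAT2 2.1.0, featureCounts and hg38 were used; the annotation release, the options, and the handling of strand, multiple mapping and overlapping genes are not given in the sources used here. Per the file headers, the Nanopore column carries a suffix whose meaning is not given there.

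Names, positions and lengths came from GENCODE 44 on hg38, which held 58207 of the 58735 identifiers. Gene length was the MANE Select transcript or, where there is none, the Ensembl canonical one. CPM used library totals. With 1 library per platform no quasi-likelihood model was fitted: genes averaging 5 CPM or more were given a two-sided exact conditional binomial test (p double the smaller tail) with Benjamini-Hochberg adjustment, in Python 3.11.15 with scipy 1.17.1. Fold intervals are exact (Clopper-Pearson, 95%), intervals of levels are Wilson, and both cover counting error only. TMM factors came from edgeR 4.0.16. No pseudocount was used.

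Alternatives were other scalings, lengths, filters and thresholds. The members, lists and tests were chosen with earlier results of these data known. Named genes were all 10 members, overlapping genes of at least 10 counts, tested genes of short lists, and of the 2 longer lists the 2 highest and 2 lowest folds and the gene with most Nanopore counts. PTPRC, LYZ and the other markers and genes at 0 were named from their lists after their values were seen. Coding stretches of the other members are not reported here.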

Additional observations from a re-analysis of the deposited data

How the results depend on the processing

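The number of members called higher by Nanopore was 1 in CPM, beside 17.8% of all tested genes. It was 5 with the Illumina counts divided by union exonic length, 2 by mean transcript length and 0 by canonical length, where 27.7%, 20.9% and 28.4% of all tested genes were called that way. It was 0 at a threshold of 4-fold, and 0 when only genes that overlap no other gene were tested, which leaves 4 members and not CST3. The number called higher by Illumina was 2 in CPM, beside 22.0% of all tested genes. It became 0 by union exonic length and 1 by mean transcript length, beside 7.70% and 11.4%. Without a fold threshold it was 4, beside 27.2%, and at 4-fold it was 0. Shares over all tested genes at 4-fold are not reported here. The remaining settings kept both numbers at 1 and 2. Cystatin counts per Illumina cathepsin count moved from 0.161 to 0.454, 0.200 and 0.560 by union exonic, mean transcript and canonical length, and 9 and 5 members took another place in the Illumina order by union exonic and mean transcript length. Of 63 folds of members under other scalings, 48 kept direction and call and 9 reversed. The reversed folds by union exonic length were 1.43 (CTSB), 6.89 (CTSC), 4.05 (CTSH) and 3.87 (CTSZ). By mean transcript length they were 1.29 (CTSC), 1.63 (CTSH) and 1.00 (CTSZ), and by canonical length 1.10 (CTSH) and 0.482 (CSTB). A fold counted as reversed when it lay on the other side of 1 from the CPM fold, whatever its interval. The intervals of those by mean transcript length, and that of CTSH by canonical length, include 1. Division by length changes each gene by its own length, and which length fits the RNA present was not tested. Median-ratio scaling and totals over nuclear protein-coding genes raised every fold by 0.127 and 0.246 (log2), and TMM and totals over genes without overlap, the last chosen after seeing the data, by 0.088 and 0.063. None of these 4 reversed a member. At 1 Nanopore count, depth limits CTSV and CST6. No paired analysis was possible because each platform has 1 library.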
